A study of Mus musculus with 16 samples.

Results

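The 8 livers of mice given emodin, a plant anthraquinone, are compared here as 2 classes chosen by the level of 1 gene. Isg15 (chromosome 4, 156199424 to 156200818, minus strand, mm10) encodes a ubiquitin-like protein made in response to interferon. Its level, in estimated counts per 1e+06 counts of the liver (CPM), was 66.9, 282, 116 and 242 in emodin livers 2, 4, 5 and 8. It was 5.36, 4.83, 6.64 and 4.77 in emodin livers 1, 3, 6 and 7. The classes were set at 20 CPM, so 4 livers are called Isg15-high and 4 Isg15-low here, of 8 emodin livers and 16 livers in all. The liver just inside the threshold was emodin 2 at 66.9 CPM, and the one just outside was emodin 6 at 6.64 CPM. The 8 vehicle livers had between 3.52 and 7.45 CPM.

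The RNA sequencing libraries were made from total RNA of livers of wild-type C57BL/6 mice. The emodin mice were given 400 mg/kg into the stomach, suspended in 0.5% CMC-Na (sodium carboxymethyl cellulose), and the vehicle mice 0.5% CMC-Na alone, over 3 weeks. Both classes are emodin livers with the same genotype, dose, carrier and duration in the labels. No label separates them, sex and age are not given, and the labels do not say that each library came from its own mouse. Since a measured gene set the classes, each difference below describes these 8 livers. A difference in another interferon gene follows in part from that choice, and no p-value is given for any gene.

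Type I interferons are secreted when a cell's sensors meet viral or misplaced nucleic acid. They bind the receptor pair IFNAR1 and IFNAR2, whose kinases activate STAT factors. With IRF9, these form a complex that binds the interferon-stimulated response element (ISRE) upstream of interferon-stimulated genes. In liver, the acute phase response is a separate program, driven in hepatocytes mainly by IL-6 and IL-1 through STAT3, NF-κB and C/EBP factors.

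Sequences upstream of some interferon-stimulated genes, of Ifnb1 and of Saa1 and Saa2 are shown first, to let the response elements be seen. These genes were chosen after their values were seen and are not simply those furthest apart. The sequences shown leave out Atf3, Nrg1 and Slpi, which differed more than Ifit1 and Saa1. Also searched but not shown were Lcn2, which like Atf3 and Slpi held a match, and Jun, Elovl6, Plin2 and Irf7. These last, among them the interferon-induced Irf7, held no match in the 250 bases. Every sequence shown except that of Ifnb1 holds a match, so no share of matches is to be read from them. The sequences were taken from RefSeq promoter windows (build GRCm38.p6, 250 bases before the RefSeq start), written 5′ to 3′ on the gene's strand, and stop where the GENCODE gene begins. Capitals mark matches, on either strand, to ISRE letters (a GAAA block, 2 free bases, a GAAA block), to AP-1 letters (TGANTCA, which read the same on both strands) and to C/EBP letters (TTGCNNAA). The sequences lie at chr4:156200819-156201068, minus strand (Isg15), chr19:34640639-34640870, plus strand (Ifit1), chr12:26456453-26456702, minus strand (Rsad2), chr5:92348890-92349139, minus strand (Cxcl10), chr4:88522795-88523044, minus strand (Ifnb1), chr7:46742981-46743230, minus strand (Saa1), and chr7:46751583-46751789, plus strand (Saa2).
Isg15: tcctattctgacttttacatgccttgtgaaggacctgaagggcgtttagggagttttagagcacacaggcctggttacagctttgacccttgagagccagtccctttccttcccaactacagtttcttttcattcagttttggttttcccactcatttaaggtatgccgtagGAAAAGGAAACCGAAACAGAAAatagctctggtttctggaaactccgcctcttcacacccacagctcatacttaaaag
Ifit1: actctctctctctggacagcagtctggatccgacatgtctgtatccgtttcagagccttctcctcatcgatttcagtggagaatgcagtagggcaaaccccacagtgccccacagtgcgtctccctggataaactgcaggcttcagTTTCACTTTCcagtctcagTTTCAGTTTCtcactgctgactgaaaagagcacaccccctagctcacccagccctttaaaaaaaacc
Rsad2: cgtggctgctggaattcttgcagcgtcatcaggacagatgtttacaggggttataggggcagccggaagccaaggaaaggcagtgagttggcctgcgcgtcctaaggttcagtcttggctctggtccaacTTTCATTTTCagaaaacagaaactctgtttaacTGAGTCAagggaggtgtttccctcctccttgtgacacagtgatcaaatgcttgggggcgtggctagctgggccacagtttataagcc
Cxcl10: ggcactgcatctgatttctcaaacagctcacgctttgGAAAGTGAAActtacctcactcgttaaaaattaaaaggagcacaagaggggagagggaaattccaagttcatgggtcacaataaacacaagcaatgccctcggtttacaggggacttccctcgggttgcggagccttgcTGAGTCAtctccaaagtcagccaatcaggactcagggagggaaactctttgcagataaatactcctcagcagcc
Ifnb1: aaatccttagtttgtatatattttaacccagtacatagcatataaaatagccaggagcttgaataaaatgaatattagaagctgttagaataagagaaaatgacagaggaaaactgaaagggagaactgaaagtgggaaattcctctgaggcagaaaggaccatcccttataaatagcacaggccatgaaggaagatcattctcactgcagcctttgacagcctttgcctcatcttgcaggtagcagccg
Saa1: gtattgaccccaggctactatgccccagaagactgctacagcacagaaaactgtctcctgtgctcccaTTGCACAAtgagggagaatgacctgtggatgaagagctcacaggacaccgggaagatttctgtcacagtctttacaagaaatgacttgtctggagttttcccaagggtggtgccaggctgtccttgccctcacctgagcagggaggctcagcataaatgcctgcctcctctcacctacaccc
Saa2: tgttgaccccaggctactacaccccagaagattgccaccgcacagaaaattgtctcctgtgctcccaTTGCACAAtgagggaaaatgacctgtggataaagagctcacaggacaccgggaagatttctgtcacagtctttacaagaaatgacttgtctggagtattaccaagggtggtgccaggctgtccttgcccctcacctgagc

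The Isg15 window held 3 overlapping ISRE matches, which began 78, 72 and 66 bases before the start. The Ifit1 window held 2 on the opposite strand, at 104 and 85 bases, and the Rsad2 window held 1, at 120 bases, with an AP-1 match at 87 bases. In the Cxcl10 window an ISRE match lay at 213 bases and an AP-1 match at 74 bases. Saa1 and Saa2, near-identical neighbours, each held 1 C/EBP match, at 182 and 183 bases. The Ifnb1 window held none of the 7 motifs searched, which also included STAT letters (TTCNNNGAA), ATF4 letters (TGATGNAA), HNF4 letters (CAAAGTNCA) and an NF-κB motif, all on both strands. A match describes the letters only, and the lack of a match does not show that a site is absent. The ISRE letters allowed exactly 2 free bases and the NF-κB motif only 1, so close variants of either were not counted. The Ifnb1 result therefore does not show that its window lacks NF-κB or interferon response elements.

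Over whole profiles the classes stood apart. The first principal component of the 8 emodin livers held 43.9% of the variance and placed the Isg15-low livers close together, from -31.8 to -27.8. The Isg15-high livers were spread out, at 8.11 (emodin 2), 25.3 (emodin 5), 40.1 (emodin 4) and 43.5 (emodin 8). The second component, 17.4%, set emodin 5 (-41.1) against emodin 8 (29.0). Across all entries tested, log2 levels of Isg15-low livers correlated at 0.979 to 0.989 with each other, those of Isg15-high livers at 0.969 to 0.982, and those of 1 liver of each class at 0.953 to 0.978. These pairs share livers, and the coefficients are a description.

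Of 14520 entries tested, 897 (6.18%) were higher in the Isg15-high class past the edgeR threshold, a Benjamini-Hochberg adjusted p under 0.05, and 594 (4.09%) were lower. The classes did not overlap, with every liver of 1 class above every liver of the other, for 1544 entries higher (10.6%) and 1369 lower (9.43%) in the Isg15-high class. Since the classes were chosen on these libraries, nothing is read from these shares. They are the background for every list count below, and a list with a like share does not stand out by its count. At least 2-fold apart without overlap were 405 entries higher and 246 lower. The counts past the threshold depended on single livers: higher and lower, they were 364 and 154 without emodin 1, 332 and 150 without emodin 3, 458 and 196 without emodin 4, 441 and 237 without emodin 6, 575 and 342 without emodin 7, and 721 and 377 without emodin 8. With any 1 liver left out, 282 of the 897 and 121 of the 594 stayed past the threshold. Scaled to total counts instead of TMM factors, the median log2 difference of all entries was 0.17 in place of 0.01 and the split was 1700 higher to 333 lower, or 83.6% higher against 60.2%.

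**Figure D1:**
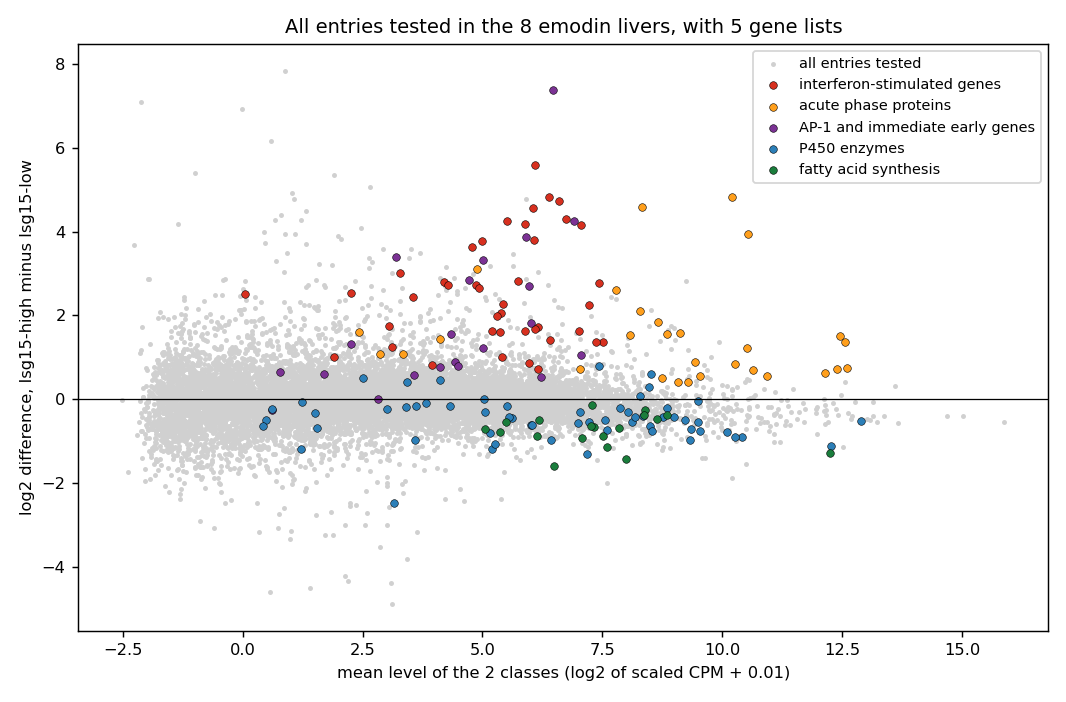
Each point is 1 of the 14520 entries tested. The x axis is the mean level of the 2 classes (log2 of scaled CPM + 0.01), the y axis the log2 difference, Isg15-high minus Isg15-low; colours mark 5 gene lists. Interferon-stimulated genes (median 2.44) and acute phase proteins (median 1.22) lie above 0, and fatty acid synthesis (median -0.70) and P450 enzymes (median -0.50) lie mostly below it.

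Of 6 library properties compared between the classes, none passed adjustment. The 50 most abundant entries took 37.0 ± 1.39% of the counts in the Isg15-high livers and 40.6 ± 0.80% in the Isg15-low livers (SD, n = 4 each), with no overlap (exact two-sided permutation p = 0.0286, the smallest that 70 assignments can give, and 0.171 adjusted over 6 properties). Mitochondrially encoded genes took 9.32 ± 1.61% and 11.6 ± 0.95% (exact permutation p = 0.0857, adjusted 0.171), and albumin 5.15 ± 0.79% and 6.75 ± 0.58% (exact permutation p = 0.0571, adjusted 0.171). Depth was 28.3 to 44.3 M estimated counts in the Isg15-high and 34.9 to 48.2 M in the Isg15-low class (exact permutation p = 0.343). Their part in the differences below was not tested. The libraries carried the markers of liver: 10 hepatocyte markers summed to 75071 to 95931 CPM in the Isg15-high, 108818 to 124033 in the Isg15-low and 112712 to 145945 in the vehicle livers. Most of each sum was Alb, so it follows the level of that gene. Without overlap 4 of the 10 were lower and 1 higher in the Isg15-high class, beside 9.43% and 10.6% of all entries. The higher one was Fgb (fibrinogen β), at 5348 to 10860 against 4170 to 4886 CPM. In bulk liver, fewer cells of a type and less RNA per cell cannot be told apart.

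Interferon ligands were almost silent outside the Isg15-high livers. Ifnb1, the gene of interferon β (chromosome 4, 88522025 to 88522774, mm10), had 31, 60, 9 and 207 estimated counts in emodin 2, 4, 5 and 8. It had 0, 0, 2 and 0 in emodin 1, 3, 6 and 7, and 0 in all 8 vehicle livers, where a count of 0 allows up to 0.106 CPM. After TMM scaling these were 0.712, 1.40, 0.320 and 5.34 CPM against at most 0.045 CPM. So 1 of the 4 Isg15-low livers had any count, and emodin 8 had more than the other 7 livers together. Emodin 4, the liver highest in Isg15, was not the highest in Ifnb1. Ifnb1 entered the test only through the livers where it was high.

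Other ligand genes gave few counts. The 13 interferon α genes in the table summed to 12 counts in the Isg15-high livers, 10 of them Ifna4, and to 0 in the Isg15-low and vehicle livers. Ifng, made by T and NK cells, had 11 counts over the Isg15-high livers, 0 over the Isg15-low and 11 over the vehicle livers. Both interferon λ genes in the table, Ifnl2 and Ifnl3, were at 0 in all 16 livers. Interferon α genes are close copies, and how shared reads were counted is not stated.

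Most tested members of the list of interferon ligands, receptors and sensors did not pass. The list leaves out the sensors Ddx58, Ifih1, Dhx58 and Zbp1, which are counted below with the interferon-stimulated genes, a list tied to the rule. These sensors passed as higher in every fit that left out 1 liver. Zbp1 was at 58.9 to 173 CPM in the Isg15-high and 5.19 to 6.57 CPM in the Isg15-low livers. Of 20 ligands, receptors and sensors tested, 6 passed the threshold (Ifnb1, Tlr3, Sting1, Irf1, Tbk1 and Ikbke), all higher in the Isg15-high class, where 6.18% of all entries were. Higher without overlap were 5, beside 10.6% of all entries. Ifnb1 is in both counts, but it entered the test only through the livers where it was high, so it adds nothing to them. The median log2 difference was 0.26 (0.42 with total-count scaling), beside 0.01 over all entries. Without emodin 3 only 2 passed, Tbk1 and Irf1, and without emodin 4 the median was 0.17. The receptor chain Ifnar1 stood at 24.8, 27.1, 24.4 and 25.8 CPM in emodin 2, 4, 5 and 8 and at 27.9, 26.1, 23.9 and 24.9 CPM in emodin 1, 3, 6 and 7, so the classes overlapped. Tbk1, the kinase that activates IRF3, was at 30.9, 33.8, 38.9 and 36.4 CPM in the Isg15-high class and 23.4, 20.1, 22.1 and 23.3 CPM in the Isg15-low class, in the same order of livers (vehicle 21.9 to 28.9). Its log2 difference was 0.65 ± 0.10 (SE). From here on, values are scaled CPM and run in that order, emodin 2, 4, 5 and 8 and then emodin 1, 3, 6 and 7, and log2 differences are Isg15-high minus Isg15-low ± SE from edgeR.

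Ikbke, a kinase related to Tbk1, had 32.8, 29.7, 38.1 and 22.02 against 15.3, 16.03, 20.5 and 12.9 CPM, and Irf1, a factor induced by interferon γ and type I interferon, 30.6, 37.3, 47.03 and 34.2 against 20.8, 23.5, 18.95 and 22.1 CPM. Tlr3, an endosomal sensor of double-stranded RNA, passed with 0.92 ± 0.22 although emodin 2 (6.87 CPM) lay below emodin 3 (6.98 CPM). The levels of the adaptor Mavs, the kinase Jak1 and the factor Irf3 differed by at most 0.07 on the log2 scale between the classes.

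Interferon-stimulated genes, the list the rule's gene belongs to, were higher together: 40 of 41 tested did not overlap and passed, with a median log2 difference of 2.44. This count is tied to the rule and supports nothing. With any 1 liver left out, 39 stayed past the threshold. Ifit1, which binds foreign RNA, was at 114, 282, 194 and 228 against 10.2, 11.2, 8.36 and 11.7 CPM (vehicle 5.002 to 8.62). Rsad2, the antiviral enzyme viperin, was at 108, 153, 186 and 296 against 6.54, 7.31, 4.88 and 9.18 CPM. Emodin 2 was the lowest of the Isg15-high livers for both, as for Isg15, and still lay above every Isg15-low liver.

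Among the factors that carry the signal, Irf7, the amplifier of interferon α transcription, was at 202, 383, 308 and 301 against 45.6, 47.8, 44.9 and 37.1 CPM (vehicle 21.01 to 46.7). Stat2 and Irf9 were less far apart, by 0.71 and 1.02 (log2). Ifit2 was the exception: 12.6, 30.5, 0.533 and 35.4 against 5.42, 0.235, 4.204 and 4.86 CPM. Emodin 5 and emodin 3 stood below 1 CPM for it while their class neighbours were several-fold higher. The 10 annotated genes whose log2 levels followed Isg15 most closely over the 8 emodin livers were Zbp1, Nmi, Ifit3, Usp18, Gbp3, Trim12c, Xaf1, Ifi44, Irf7 and Oasl2. Most belong to the same list, and with 2 separate clusters of livers no coefficient is given.

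The interferon-inducible GTPases, which attack vacuoles that hold microbes, gave 13 of 17 without overlap and a median of 1.86. Of the 13 past the threshold, 8 stayed so without emodin 3 or without emodin 6. Gbp3 was at 40.9, 112, 84.5 and 128 against 9.42, 7.12, 8.65 and 7.78 CPM. Gbp7 overlapped because emodin 2 was at 4.39 CPM, below the 13.7 to 20.02 CPM of the Isg15-low livers, while the other 3 Isg15-high livers were at 79.1 to 84.7 CPM.

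Of 22 members of MHC class I presentation, 14 did not overlap and passed, all higher (median 0.68; 11 without emodin 1 or 3): subunits of the immunoproteasome, parts of the peptide loading machinery, the regulator Nlrc5 and 4 heavy chains. Among them were Tapbp, the tapasin chaperone, at 124, 161, 157 and 140.1 against 60.9, 64.6, 66.7 and 66.9 CPM and Psmb8, an immunoproteasome subunit, with 1.13 ± 0.16. The light chain B2m (0.10 ± 0.18) and the heavy chain H2-K1, at 1178, 1068, 1394 and 729.9 against 961, 1029, 1156 and 1226 CPM, overlapped, while the nonclassical chain H2-T22 was at 133, 211, 189 and 258 against 83.2, 85.4, 86.6 and 98.7 CPM. Close copies of heavy chain genes may share reads, so these are uncertain one by one.

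**Figure D2:**
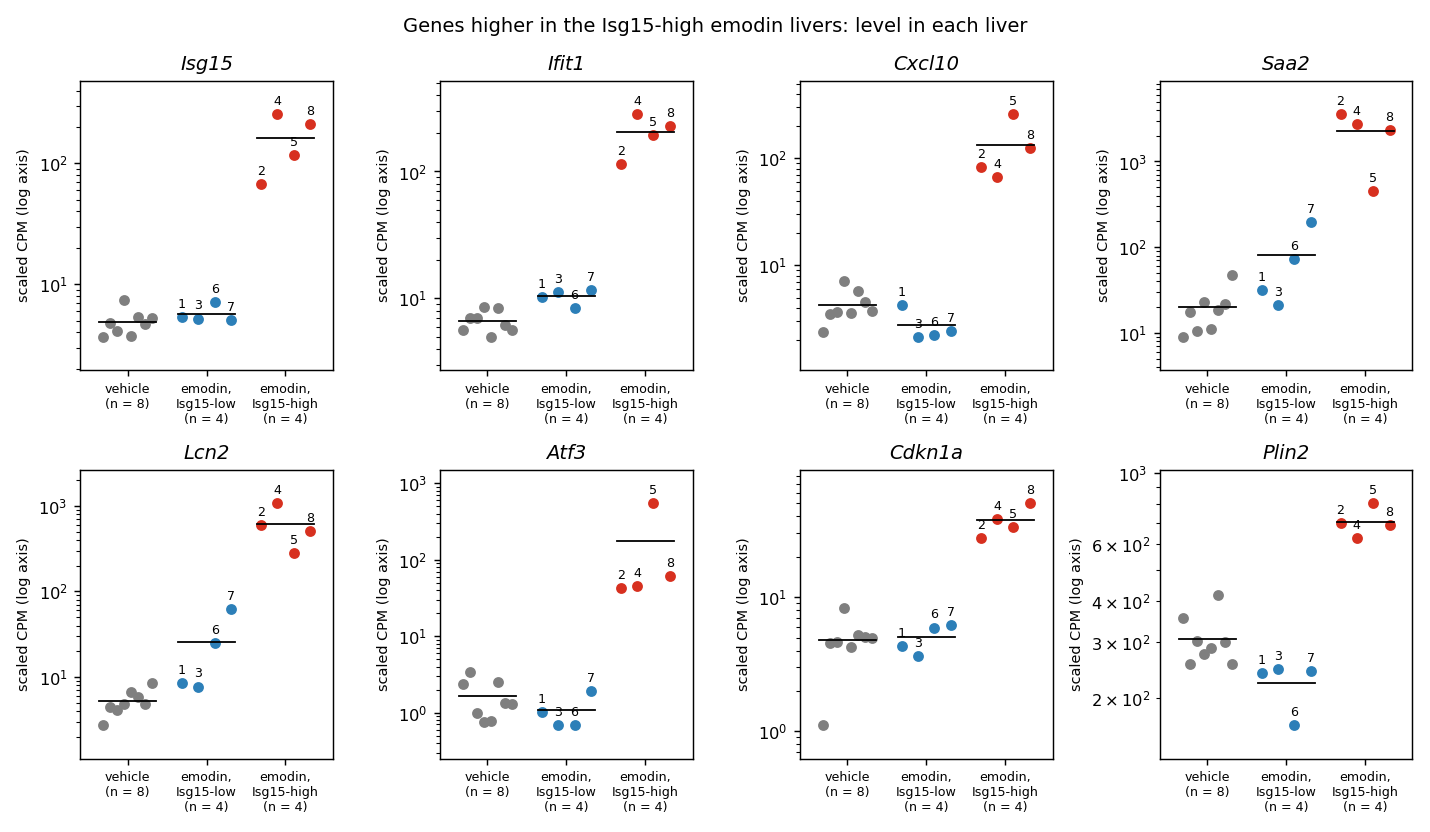
Level of 8 genes in each liver, in scaled CPM on a log axis, by group: 8 vehicle, 4 Isg15-low and 4 Isg15-high emodin livers. Points are livers, numbers are emodin replicate numbers and lines are group means. Isg15-low livers lie near the vehicle livers for Isg15 and Atf3, while for Saa2 and Lcn2 emodin 6 and 7 lie above them; emodin 5 is the highest for Atf3 and the lowest of its class for Saa2.

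Acute phase proteins, secreted by hepatocytes during inflammation, were higher in the Isg15-high class. Higher without overlap were 19 of 29, and 16 passed, beside 10.6% and 6.18% of all entries. None was lower, and the median log2 difference was 1.22. Saa1 and Saa2, the acute serum amyloid A proteins, and Lcn2, an iron-sequestering protein, were furthest apart. Saa2 was at 3543, 2735, 456 and 2341 against 31.7, 21.1, 72.9 and 196 CPM (vehicle 9.06 to 47.6), a log2 difference of 4.82 ± 0.94. Lcn2 was at 601, 1074, 278 and 513 against 8.62, 7.78, 25.02 and 61.9 CPM (vehicle 2.74 to 8.59). In the Isg15-low class, emodin 6 and 7 lay well above all vehicle livers in both genes, while emodin 1 and 3 lay within the vehicle range or at its upper edge.

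Hp, haptoglobin, which binds free hemoglobin, was at 8654, 9972, 6904 and 7653 against 2359, 3000.1, 2854 and 3488 CPM (vehicle 1761 to 2049.9), and Hpx, the heme carrier hemopexin, at 8124, 11212, 7226 and 8052 against 2623, 3303, 3937 and 3506 CPM. Apcs, serum amyloid P, was at 432, 707, 162 and 718 against 76.9, 132, 115 and 148 CPM, with emodin 5 close to the Isg15-low livers. Emodin 5 was the lowest Isg15-high liver for Saa1, Saa2, Lcn2, Hp, Hpx, Apcs and Fga (fibrinogen α). Mt2, a metallothionein, did not separate the classes, at 929, 852, 543 and 205 against 84.2, 74.5, 235 and 314 CPM, but all 8 emodin livers lay above the vehicle range of 5.299 to 63.6 CPM. Of the 16 acute phase members past the threshold, 8 passed without emodin 3 or without emodin 6. Saa1 and Saa2 share sequence, and their values are uncertain one by one.

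Other secreted liver proteins were mostly lower or overlapping. Complement and coagulation factors had a median of -0.15, which turned to 0.018 with total-count scaling. Without overlap 8 of 38 were lower and 2 higher, beside 9.43% and 10.6% of all entries, so the higher count was not above that share. The factor XIII subunit F13b was lower, at 131, 112, 192 and 115 against 221, 231, 206 and 218 CPM. The 2 lower calls, F13b and Masp2, were both lost without emodin 1, 3, 4, 6 or 8. Alb, serum albumin, was at 48804, 38806, 53650.0 and 53727 against 67607, 73342, 65426 and 79569 CPM (vehicle 73689 to 101855), without overlap but short of the threshold. Of 14 negative acute phase proteins, 3 were lower without overlap (9.43% of all entries were), short of the threshold, with a median of -0.30 (-0.13 with total-count scaling).

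NF-κB targets and cytokines were unevenly different. Of 20 tested, 6 passed, all higher in the Isg15-high class (0 without emodin 6), beside 6.18% of all entries. Higher without overlap were 7, beside 10.6% of all entries, and the median was 0.39. The chemokines Cxcl1, Cxcl2 and Ccl2, the adhesion gene Icam1, the inhibitor Tnfaip3 and the subunit Rela were the 6. Cxcl1, a neutrophil attractant, was at 40.4, 27.2, 37.4 and 14.8 against 7.55, 12.8, 10.3 and 11.3 CPM, and Icam1, an adhesion molecule, at 32.6, 23.3, 49.7 and 13.8 against 9.998, 9.89, 9.91 and 10.3 CPM. Tnfaip3 was at 6.25, 8.21, 24.2 and 7.32 against 2.16, 2.61, 2.99 and 3.56 CPM, highest in emodin 5, with a log2 difference of 2.02 ± 0.44 that came to 1.36 without that liver. The inhibitor Nfkbia (0.34 ± 0.21) and the cytokine Il1b (-0.10 ± 0.29) overlapped, and Tnf and Il6 were too low to be tested.

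Cxcl10, an attractant of T cells with both interferon and NF-κB input, had the largest log2 difference of the interferon-stimulated list (5.59 ± 0.53). It was at 82.5, 67.1, 258 and 126 against 4.26, 2.16, 2.23 and 2.43 CPM (vehicle 2.403 to 7.098), and emodin 5 was the highest. Of 15 members of IL-6, IL-1 and STAT3 signalling, 3 passed (1 without emodin 4, 6 or 7, namely Il4ra), with a median of 0.53 (0.28 without emodin 5). Without overlap 4 were higher and 1 lower, beside 10.6% and 9.43% of all entries. Socs3, the feedback inhibitor of STAT3, was at 19.03, 24.8, 17.8 and 12.6 against 4.18, 13.3, 9.104 and 8.85 CPM and overlapped in 1 pair of livers, emodin 8 and emodin 3.

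The AP-1 and immediate early genes were higher in part and varied widely within the Isg15-high class. Of 21 tested, 10 did not overlap and 9 passed (4 without emodin 1, 3 or 6), beside 10.6% and 6.18% of all entries higher. None of these was lower, and the median was 1.22. Atf3, a stress-induced repressor, was at 42.9, 45.7, 551 and 61.04 against 1.01, 0.681, 0.697 and 1.92 CPM (vehicle 0.744 to 3.37). Its log2 difference was 7.37 ± 1.21, and 5.56 without emodin 5, the liver far above the rest. Jun, an AP-1 subunit, was at 48.1, 70.1, 655 and 134 against 9.02, 11.8, 10.05 and 17.1 CPM, a difference of 4.24 ± 0.90 that came to 2.81 without emodin 5.

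Klf6, an early injury factor, was at 45.3, 54.4, 261 and 89.9 against 8.18, 6.02, 6.02 and 10.5 CPM and Btg2, a growth-arrest gene, at 33.9, 36.5, 323 and 43.6 against 12.3, 15.7, 17.4 and 22.01 CPM. In both emodin 5 stood far above the other 3 Isg15-high livers, and Btg2 did not pass. Myc was more even, at 31.6, 53.6, 79.5 and 69.8 against 6.11, 7.68, 4.14 and 5.59 CPM (vehicle 2.13 to 6.05). Fos and Egr1 passed but overlapped: emodin 2, at 2.11 CPM Fos and 6.11 CPM Egr1, lay within the Isg15-low class.

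Genes of the integrated stress response, which ATF4 drives when translation is checked, were partly higher, with a median of 0.67. Higher without overlap were 9 of 22, and 7 passed (1 without emodin 1, namely Nupr1), beside 10.6% and 6.18% of all entries. Gdf15, a stress hormone, was at 81.4, 23.9, 332 and 26.02 against 2.71, 2.397, 2.79 and 9.21 CPM, with a log2 difference of 4.77 ± 1.06 that was 3.37 without emodin 5. Nupr1, a chromatin-associated stress protein, was at 18.9, 7.95, 5.54 and 23.6 against 0.692, 1.03, 1.24 and 1.67 CPM. Fgf21, a fasting and stress hormone of liver, was at 16.8, 3.01, 24.7 and 2.502 against 1.297, 1.998, 0.742 and 0.7903 CPM. Emodin 2 and 5 were the high livers for Gdf15 and Fgf21, emodin 2 and 8 for Nupr1. Shmt2, an enzyme of mitochondrial serine use, was the 1 member lower past the threshold, where 4.09% of all entries were. The call was kept only without emodin 2. Atf4 itself was at 96.7, 91.6, 134 and 85.6 against 63.6, 68.8, 74.3 and 69.7 CPM (vehicle 61.5 to 115), while Asns overlapped at 3.88, 8.91, 6.36 and 25.996 against 6.48, 10.8, 1.93 and 2.01 CPM.

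Among chaperones most members did not pass. Of 20 ER chaperones and XBP1 targets, 6 did not overlap and 3 passed, all higher, beside 10.6% and 6.18% of all entries. Past the threshold were 0 without emodin 1, 3, 4 or 7, and 10 without emodin 5. Hspa5, the main ER chaperone, was at 850.0, 1139, 726 and 1340.4 against 591, 584, 690.3 and 633 CPM (vehicle 529 to 857). Calr, calreticulin, was at 874, 1188, 676 and 1253 against 508, 634, 623 and 486 CPM (vehicle 613 to 820). Both were lowest in emodin 5 within the Isg15-high class. Emodin 2 and 5 lay within the vehicle range for Hspa5. For Calr emodin 5 lay within it, and emodin 1 and 7 below it. Calr passed and Hspa5 did not. Of 15 heat shock proteins, 8 did not overlap and 5 passed (2 without emodin 3), all higher, beside the same shares of all entries. Hsp90aa1 was at 246, 306, 381 and 522 against 146, 128, 163 and 162 CPM, and here emodin 5 was not low.

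The p53 targets split: 8 of 20 passed, all higher (4 without emodin 1), beside 6.18% of all entries, and the median was 0.87. Cdkn1a, the cell cycle inhibitor p21, was at 27.6, 38.1, 33.4 and 50.2 against 4.35, 3.67, 5.93 and 6.17 CPM (vehicle 1.11 to 8.28), Gadd45a, a DNA damage and stress gene, at 9.05, 9.097, 40.1 and 22.4 against 2.36, 2.703, 1.33 and 1.43 CPM, and Mdm2, the p53 ligase, at 47.1, 49.01, 97.04 and 74.3 against 25.1, 26.5, 29.9 and 26.7 CPM. Among other p53 targets, Ccng1 (0.22 ± 0.16) and Phlda3 (-0.53 ± 0.36) overlapped, and Sesn1 (-0.51 ± 0.14) was lower without overlap and did not pass.

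The NRF2 targets split as well: 8 of 22 passed, all higher (5 without emodin 1 or 3), beside 6.18% of all entries, with a median of 0.33. Hmox1, heme oxygenase, was at 37.9, 48.8, 129 and 57.2 against 16.05, 11.6, 13.1 and 11.2 CPM, and Srxn1, which repairs oxidised peroxiredoxin, at 87.8, 163, 140.2 and 238 against 34.3, 28.01, 41.7 and 32.5 CPM. Nqo1 (0.43 ± 0.18) and Gclm (0.03 ± 0.12), classical targets of the factor, overlapped, and Gstm1 was lower, at 1299, 1264, 1337 and 1119 against 1617, 1593, 1858 and 1709.9 CPM, without passing.

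**Figure D3:**
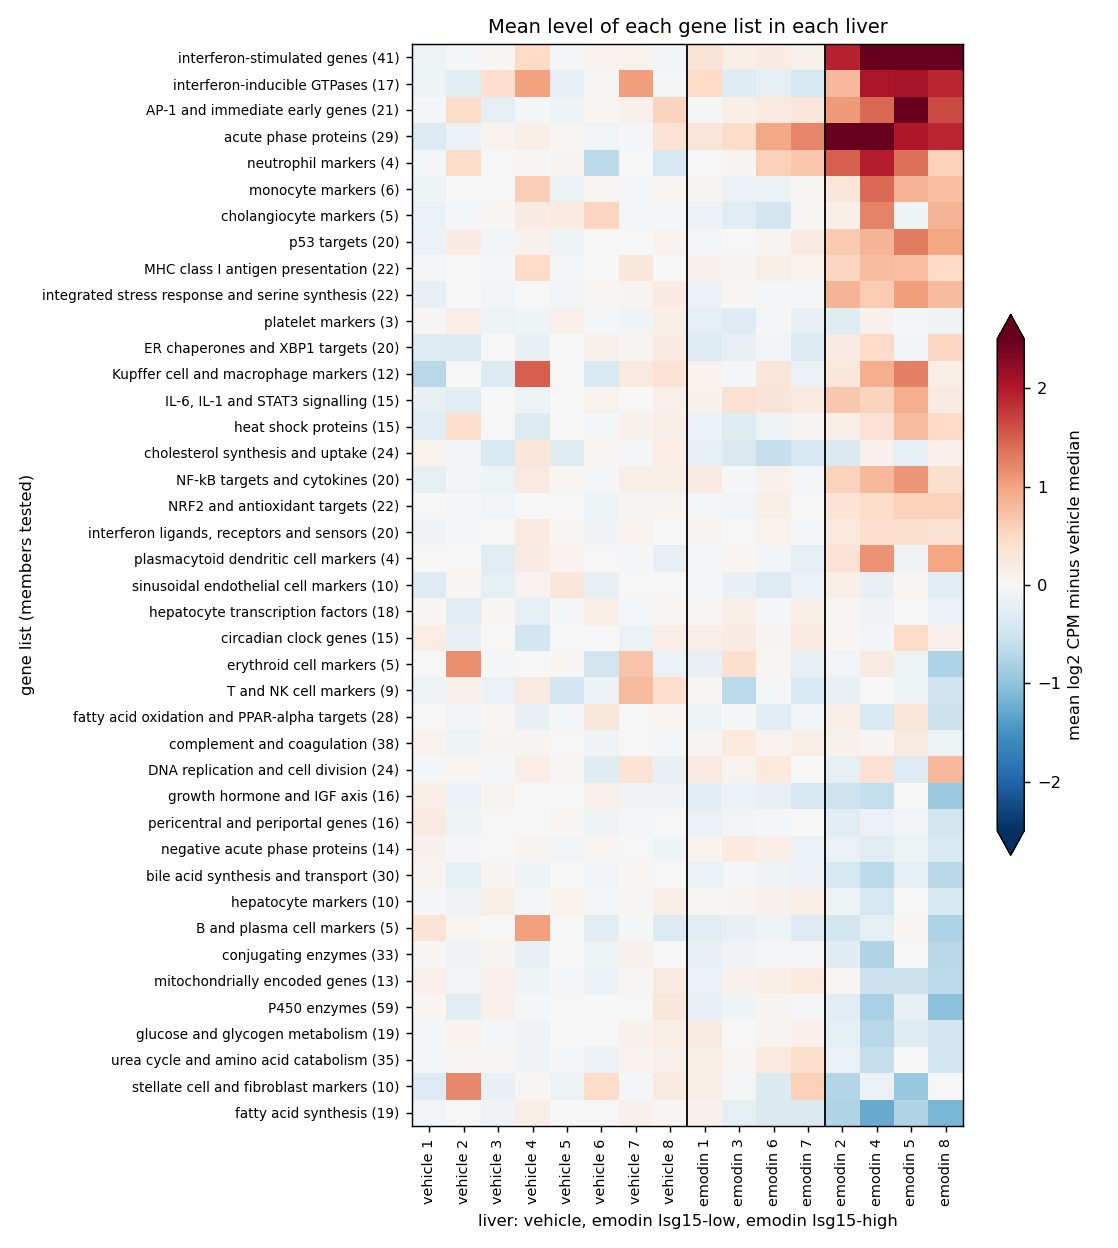
Rows are gene lists with at least 3 members tested (number in brackets), columns are livers, and colour is the list's mean log2 CPM (tested members) minus the median of the 8 vehicle livers, saturated at 2.5 in each direction. Rows are ordered by the median log2 difference between the classes, so their order carries no test; interferon, AP-1, acute phase and p53 rows are red in emodin 2, 4, 5 and 8, and fatty acid synthesis is blue there.

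Genes of liver metabolism were lower in part in the Isg15-high class, those of fatty acid synthesis among them. Of 19 genes of fatty acid synthesis tested, 7 passed (5 without emodin 1 or 4) and 9 did not overlap, beside 4.09% and 9.43% of all entries lower. None was higher, and the median was -0.70 (-0.45 without emodin 1). Elovl6, which extends palmitate, was at 52.2, 38.2, 47.8 and 41.3 against 164, 118, 112 and 151 CPM (vehicle 105 to 155), a log2 difference of -1.60 ± 0.16. Scd1, the stearoyl-CoA desaturase, was at 2934, 1919, 3211 and 3192 against 8664, 5038, 4779.8 and 8978 CPM (vehicle 7918 to 10423). Acly, ATP citrate lyase, was at 118, 111, 105 and 151 against 368, 241, 241 and 222 CPM. Emodin 3 and 6 were below the vehicle range for Scd1 while emodin 1 and 7 were within it. Their regulators Srebf1 (-0.49 ± 0.33) and Mlxipl (-0.88 ± 0.29) overlapped.

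Of 24 genes of cholesterol synthesis and uptake, 5 passed, all higher (0 without emodin 3, 4 or 6), and 19 did not. Without overlap 5 were higher and 2 lower, beside 10.6% and 9.43% of all entries, so the lower count was not above that share. The 2 were the enzymes Tm7sf2 and Sc5d, and the median of the list was 0.47. Sqle, squalene epoxidase, was at 74.9, 158, 79.6 and 172 against 51.03, 45.9, 52.5 and 48.2 CPM (vehicle 40.3 to 98.5), so emodin 2 and 5 lay within the vehicle range. Hmgcs1 was at 180.3, 414, 179 and 352 against 162, 122, 107 and 115 CPM. Emodin 4 and 8 were the high livers for both. Against the vehicle range of 194 to 546 CPM, only these 2 emodin livers were not below it for Hmgcs1. In lipid oxidation and storage 1 of 28 passed, as higher, which is not above the 6.18% of all entries. It was Plin2, a coat protein of lipid droplets, at 696, 628, 805 and 687 against 240.0, 246, 165 and 243 CPM (vehicle 256 to 419). The Isg15-high livers lay above all vehicle livers and the Isg15-low livers below them. Pdk4, which shuts off pyruvate oxidation, was at 67.4, 48.4, 64.5 and 45.96 against 3.77, 2.98, 2.14 and 34.95 CPM and did not pass. Emodin 7 lay far above the other Isg15-low livers, and without it the log2 difference of 2.38 ± 0.90 came to 4.26.

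P450 enzymes, which oxidise drugs and steroids, were lower in part: 7 of 59 tested passed, all lower (4.09% of all entries were), and the median was -0.50. Without overlap 15 were lower and 2 higher, beside 9.43% and 10.6% of all entries. Without emodin 4 or 6 only 4 passed, and without emodin 5 the count was 14. Cyp3a11, an abundant drug-metabolising enzyme, was at 3569, 2552, 3578 and 2730.4 against 5788, 5248, 8171 and 7885 CPM (vehicle 5091 to 8175), a log2 difference of -1.12 ± 0.21. Cyp2c55 was at 2.78, 1.12, 3.91 and 3.198 against 16.9, 11.3, 18.7 and 13.6 CPM and Cyp39a1, an oxysterol hydroxylase, at 29.9, 13.2, 27.6 and 18.8 against 48.03, 46.98, 52.3 and 57.4 CPM. Cyp2e1, at 8210.4, 4509, 9140.0 and 2789.8 against 8354, 9846, 8239.8 and 9249 CPM, and Cyp7a1, the rate-limiting enzyme of bile acid synthesis, at 16.8, 48.7, 26.1 and 139 against 138, 108, 127 and 84.1 CPM, overlapped. The 2 higher without overlap were Cyp2c70, a bile acid hydroxylase, and Cyp51, of cholesterol synthesis. Close P450 copies may share reads.

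Conjugating enzymes had a median of -0.47, with 3 of 33 lower and 1, Gsta1, higher past the threshold, beside 4.09% and 6.18% of all entries. In either direction 0 passed without emodin 1 or 3, and 10 were lower without emodin 5. Gsta1, a glutathione transferase, was at 53.2, 74.8, 32.2 and 198 against 8.53, 6.63, 12.05 and 12.2 CPM (vehicle 7.37 to 17.7). The bile acid synthesis and transport list had a median of -0.35 (-0.19 with total-count scaling), and 3 of 30 passed, all lower, beside 4.09% of all entries (0 without emodin 1, 3, 4, 6 or 7; 8 without emodin 5). The uptake carrier Slc10a1 was at 448, 251, 347 and 200.4 against 549.5, 587, 534 and 549 CPM (vehicle 545 to 725), and the bile salt export pump Abcb11 at 302, 211, 294 and 206 against 387, 368, 488 and 423 CPM. In both, the Isg15-high livers lay below all vehicle livers, and emodin 4 and 8 were the lowest.

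In glucose and glycogen metabolism 5 of 19 passed, all lower (2 without emodin 1, 8 without emodin 5), beside 4.09% of all entries. Lower without overlap were 10, beside 9.43% of all entries, and the median was -0.54. G6pc, glucose-6-phosphatase, which releases glucose, was at 406, 207, 346 and 216 against 667, 424, 772 and 785 CPM. Pygl, liver glycogen phosphorylase, was at 226, 166, 218 and 191 against 507, 399, 419.7 and 372 CPM (vehicle 376 to 482), and Slc2a2, the glucose carrier GLUT2, at 275, 212, 239 and 295 against 479, 455, 429.8 and 452 CPM. Pck1, the first enzyme of gluconeogenesis, overlapped at 3050.2, 2133, 4858 and 2347 against 3342, 3468, 3834 and 3859 CPM. In the urea cycle and amino acid catabolism 5 of 35 passed, all lower, and 13 did not overlap, beside 4.09% and 9.43% of all entries. Past the threshold were 0 without emodin 1, 3, 6 or 7, and 11 without emodin 5. The median was -0.54. Ass1, argininosuccinate synthase, was at 1960.5, 1077, 1955 and 1189 against 2748, 2475, 3135 and 4291 CPM.

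**Figure D4:**
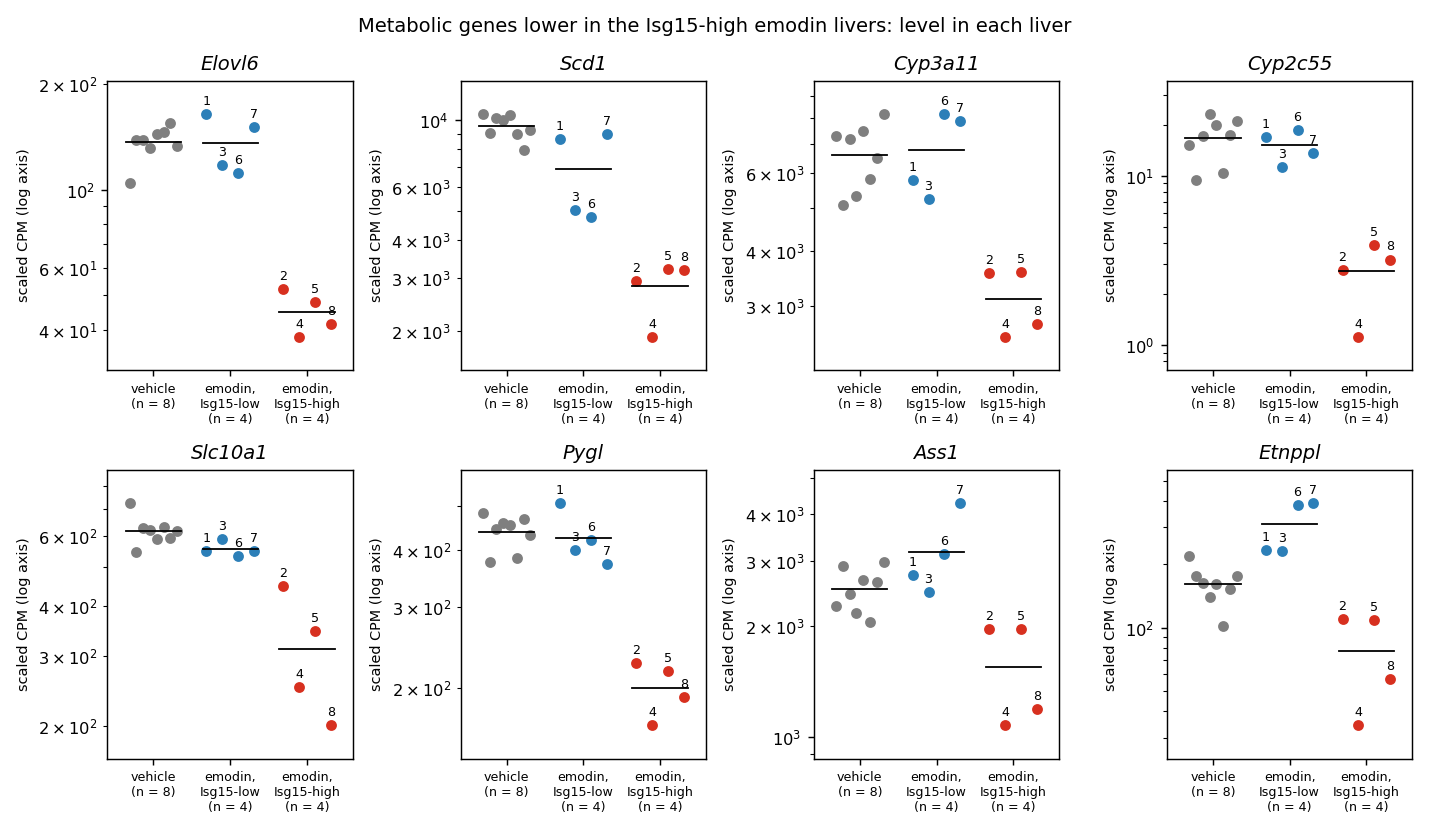
Level of 8 metabolic genes in each liver, in scaled CPM on a log axis, by group: 8 vehicle, 4 Isg15-low and 4 Isg15-high emodin livers. Points are livers, numbers are emodin replicate numbers and lines are group means. In every panel the 4 Isg15-high livers lie below the 4 Isg15-low livers, from Cyp2c55 (log2 difference -2.47) to Slc10a1 (-0.83).

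The 18 hepatocyte transcription factors had a median of 0.04 (0.20 with total-count scaling). Hnf4a, the master factor of hepatocytes, was at 636, 553, 799 and 471 against 522, 593, 564 and 609.5 CPM. The PAR-domain factors Tef and Hlf passed, both lower, where 4.09% of all entries were (0 of the list without emodin 1, 3 or 4). Tef was at 147, 96.7, 121 and 95.5 against 193, 207, 172 and 164 CPM. Per3, a circadian clock gene, was at 21.2, 18.6, 13.8 and 17.4 against 33.7, 33.3, 27.8 and 37.4 CPM, and the vehicle range was 16.3 to 27.01 CPM. Here the Isg15-low livers lay above all vehicle livers, and 3 of the 4 Isg15-high livers lay within their range. Of 15 clock genes 2 passed as higher (0 without emodin 1, 3 or 6), Nfil3 and Bhlhe41, both repressors, and 2 as lower, beside 6.18% and 4.09% of all entries. Of those lower, Per3 alone passed in every fit that left out 1 liver. Nfil3 was at 23.4, 18.2, 28.7 and 18.2 against 7.95, 10.8, 9.98 and 15.7 CPM (vehicle 8.095 to 15.1). The hour of sampling is not given per liver. Bcl6, a repressor under growth hormone control, overlapped between the classes, at 17.3, 6.205, 17.9 and 9.75 against 14.1, 14.1, 22.997 and 9.36 CPM, and all 8 emodin livers lay below the vehicle range of 40.7 to 85.01 CPM.

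Outside the lists, the largest differences without overlap at 5 CPM or more included Nrg1, a growth factor for ERBB receptors, at 5.304, 8.12, 2.56 and 13.2 against 0.202, 0.093999, 0.202 and 0.213 CPM, and Slpi, a secreted protease inhibitor, at 4.59, 16.4, 9.13 and 18.6 against 0.4898, 0.0705, 0.247 and 0.699 CPM. On the lower side, Etnppl, an enzyme that degrades phosphoethanolamine, was at 109.8, 34.4, 108 and 57.05 against 233, 232, 384 and 391 CPM (vehicle 102 to 218). Its Isg15-low livers lay above the vehicle range. The channel gene Hcn3 was at 12.3, 5.76, 2.98 and 2.66 against 44.03, 29.05, 29.3 and 22.5 CPM, and Cabyr at 4.57, 3.41, 2.98 and 3.07 against 21.98, 8.15, 19.2 and 17.6 CPM. Astn2, Ugt1a10 and Tmem38a were also among the 12 largest but did not pass, and in each 1 Isg15-low liver stood far above the others. Ugt1a10 was at 1.77, 0.3499, 2.096 and 1.93 against 5.16, 3.17, 3.87 and 23.01 CPM, and its log2 difference of -2.52 ± 0.80 came to -1.41 without emodin 7. The difference was -0.68 for Tmem38a without that liver, and -0.53 for Astn2 without emodin 6.

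Markers of other cells differed between the classes in part. The 14 neutrophil markers summed to 8.64 to 34.5 CPM in the Isg15-high, 3.77 to 7.60 in the Isg15-low and 1.39 to 6.63 in the vehicle livers. Prtn3, a serine protease of granules, made up most of it in the Isg15-high class. It was at 20.2, 25.4, 10.4 and 5.73 against 0.922, 1.34, 2.203 and 3.22 CPM, and passed except without emodin 3. Every emodin liver of both classes lay above its vehicle range of 0 to 0.469 CPM. Of the 14 markers 4 were tested, all with a higher mean in the Isg15-high class (log2 differences 0.27 to 3.01, median 1.16). Prtn3 alone of them passed and did not overlap. Among the other members, Ly6g, Camp, Mpo and Ngp reached at most 0.257 CPM (Ngp, emodin 4) in any emodin liver. The 12 Kupffer cell and macrophage markers summed to 371 to 782 CPM against 299 to 434 CPM (vehicle 202 to 891). Marco, a scavenger receptor, was at 9.18, 54.8, 72.6 and 61.5 against 6.57, 5.73, 6.52 and 6.14 CPM, but 1 vehicle liver reached 65.3 CPM. Marco and Cd68, a lysosomal protein, passed, and Cd68 alone without emodin 1, 3 or 6.

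Of 7 monocyte markers, 6 were tested and 3 passed, all higher (1 without emodin 3 or 6): Plac8 was at 11.3, 29.4, 20.96 and 21.02 against 5.56, 5.099, 5.58 and 5.14 CPM. Summed, they were at 1239 to 1410 against 967 to 1277 CPM, nearly all of it Fn1, which hepatocytes make too. Markers of T and NK cells, 6.27 to 11.7 against 4.54 to 10.7 CPM, of B and plasma cells, 4.95 to 11.2 against 6.37 to 8.83 CPM, and of sinusoidal endothelium, 202 to 301 against 209 to 245 CPM, overlapped. Plasmacytoid dendritic cells are known for interferon α. Their 6 markers summed to 13.2 to 39.2 against 11.8 to 25.0 CPM (vehicle 13.8 to 68.5), so the classes overlapped and vehicle 2 lay above every emodin liver. Among them Siglech, the defining one, reached at most 0.774 CPM in the emodin livers, and Ly6d, which lymphocytes and some epithelia express too, passed as higher (not without emodin 1, 3, 6, 7 or 8), at 1.65, 28.01, 1.81 and 10.2 against 0.519, 0.705, 0.674 and 0.517 CPM. The 10 stellate cell and fibroblast markers summed to 171 to 239 against 273 to 334 CPM (vehicle 221 to 534), most of it Dcn. Lrat and Dcn passed as lower (Dcn alone without emodin 1, 3 or 4), and the median of -0.60 came to -0.16 without emodin 7. Lrat was at 8.31, 5.48, 6.36 and 3.61 against 16.1, 14.2, 12.5 and 11.1 CPM. Cholangiocyte markers were high in emodin 4 (176 CPM) and emodin 8 (119 CPM) and at 33.9 to 48.5 CPM in the other 6 emodin livers, most of it Spp1. Sox9, a transcription factor of bile duct cells, was the 1 member that passed (not without emodin 1, 3 or 6), at 8.24, 14.5, 5.79 and 20.4 against 2.13, 2.16, 1.62 and 4.19 CPM. The median log2 difference over the cholangiocyte markers was 0.99, and 0.44 without emodin 4. The 5 adipocyte markers, nearly all Car3, which liver expresses too, summed to 146 to 993 against 979 to 2728 CPM (vehicle 1930 to 3082). The part of any of these cells in the differences above was not tested.

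Upstream letters were compared by list, without a test. ISRE letters stood in 3.44% of all 32851 RefSeq promoter windows (300 bases, 250 before and 50 after the start), in 9.73% of windows of annotated genes past the threshold and higher, and in 2.14% of those lower. Outside the interferon lists the higher genes had 6.41%. Of 39 windows of interferon-stimulated genes 21 held it (53.8%; 95% Wilson interval 38.6 to 68.4%), and of 11 windows of the GTPases 9 (81.8%). C/EBP letters stood in 10.8% of all windows and in 13 of 27 acute phase windows (48.1%, interval 30.7 to 66.0%). They also stood in 15 of 50 P450 windows (30.0%), a list lower in part. HNF4 letters stood in 1.41% of all and in 12 of 50 P450 windows (24.0%, interval 14.3 to 37.4%). Among annotated genes past the threshold, C/EBP letters stood in 8.76% of windows of those higher and 7.57% of those lower. For HNF4 letters these shares were 1.58% and 1.75%, so neither motif set all higher or all lower genes apart. AP-1 letters stood in 7.81% of all windows, in 30.8% of interferon-stimulated and 29.6% of acute phase windows, and in 1 of 23 windows of the AP-1 and immediate early genes themselves. Neighbouring family members share sequence, so windows are not independent.

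**Figure D5:**
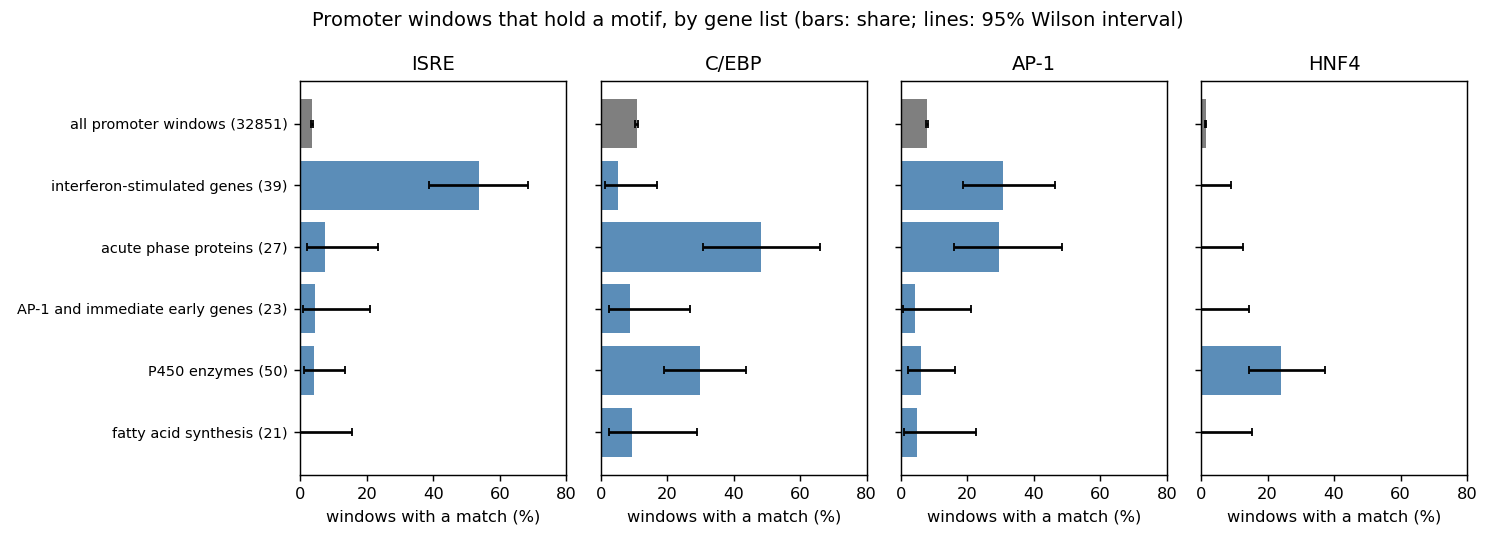
Share of promoter windows with a match to 4 motifs, in percent of windows, for all RefSeq windows (grey) and 5 gene lists (blue; number of windows in brackets), with 95% Wilson intervals. The ISRE share is highest in the interferon-stimulated list (53.8%), the C/EBP share in the acute phase list (48.1%) and the HNF4 share in the P450 list (24.0%).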

How the data were processed

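Liver RNA was measured by RNA sequencing in 16 libraries. The authors deposited 1 table of 27446 entries, in which every value is a whole number; these are treated as estimated counts per gene, although the deposited table is named for FPKM. The submitters' processing notes name HTSeq 0.6.1, HISAT2, Cufflinks 2.2.1, SAMtools 0.1.19 and cutadapt 1.9.1 and the build mm10, without their roles. How reads shared by near-identical genes were counted is not given in the sources used here, so paralogs are uncertain one by one. Of the entries, 5613 have no Ensembl ID.

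Here, levels are CPM scaled with TMM factors, and the classes use unscaled CPM. Entries were filtered with edgeR's filterByExpr and tested with its quasi-likelihood test (edgeR 4.0.16, R 4.3.3) on the 8 emodin livers alone, with no covariate. The 14520 adjusted p-values were Benjamini-Hochberg corrected and count only how widely entries went with the Isg15 class. The test was checked on simulated data. Library properties were compared by exact permutation. Vehicle livers give reference ranges only, and no emodin-against-vehicle test was made. P-values measure the spread between these samples, which may be technical.

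The classes, gene lists and members were chosen with earlier results of these data known. Genes were named by rule: Isg15, up to 5 interferon genes of largest difference, the 12 largest differences each way outside the interferon lists (no overlap, at least 5 CPM in the higher class), up to 3 such members of each other list and a few set ones. Other genes, and the promoters shown, were chosen after their values were seen. Of 816 listed symbols, 813 were found. Promoter windows came from RefSeq tables of build GRCm38.p6, and 10322 of 12996 tested symbols matched. Gene positions come from GENCODE M21 on mm10. Alternatives changed scaling, filter, tool, annotation and fold threshold, and left out each liver; leaving out each liver for the list counts was added after seeing the data. Results for a few genes are not reported here. Figures were drawn with matplotlib.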

Additional observations from a re-analysis of the deposited data

Results flagged for a closer look

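Within a class of 4 livers, 1 liver stood far from the other 3, by Dixon's 95% criterion for its gap over the class range, in 21 of 252 gene and class groups examined (126 genes in 2 classes). Independent, normally distributed values would give about 1 in 20 such groups. These genes vary together, and many were named for large differences, which a single far liver can produce. The count is therefore not read against that rate. In the Isg15-high class, emodin 5 was apart for Atf3 (551 CPM, others 42.9 to 61.0), Jun (655 CPM, others 48.1 to 134) and Tnfaip3 (24.2 CPM, others 6.25 to 8.21), and emodin 4 for the pancreatic elastase Cela1 (5.50 CPM, others 7.78 to 7.94).

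In the Isg15-low class, emodin 7 was apart in 8 genes. It was high for Gdf15 (9.21 CPM, others 2.40 to 2.79), Ugt1a10 (23.01 CPM, others 3.17 to 5.16), Tmem38a (14.0 CPM, others 2.19 to 2.66) and Pdk4 (35.0 CPM, others 2.14 to 3.77). It was also high for Akr1d1 (279.98 CPM, others 164 to 181), Got1 (637 CPM, others 344 to 388) and mt-Nd5 (6361 CPM, others 5322 to 5411), and low for Bhlhe41 (2.28 CPM, others 4.32 to 4.64). Emodin 6 was apart for Isg15 (7.19 CPM, others 5.08 to 5.39), Astn2 (20.97 CPM, others 0.821 to 0.963) and Plin2 (165 CPM, others 240.0 to 246). Emodin 1 was high for Cxcl10 (4.26 CPM, others 2.16 to 2.43), Ifit3 (17.1 CPM, others 12.98 to 13.58) and Hspa1b (15.8 CPM, others 10.3 to 10.6). Emodin 3 was low for Nrg1 (0.0940 CPM, others 0.202 to 0.213), Hsph1 (38.9 CPM, others 47.0 to 48.6) and Zbp1 (5.19 CPM, others 6.52 to 6.57).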

How the results depend on the processing

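No paired analysis was possible because the 2 classes share no replicate numbers. Of 897 entries higher and 594 lower past the threshold, the counts were 1700 and 333 with total-count scaling, 1393 and 1154 with DESeq2, and 913 lower with limma-voom; 332 to 1086 and 150 to 776 with 1 liver left out. Without overlap and at least 2-fold apart were 405 higher and 246 lower. The lower count was 150 with total counts and 161 with Ensembl IDs only. At 1.5-fold the counts were 774 and 662, at 4-fold 148 and 28, and with 1 liver left out 404 to 579 and 283 to 444. With 1 liver left out, class differences ranged from -7.46 to -2.13 M counts in depth, -4.11 to -2.98 percentage points in the share of the 50 top entries, -3.06 to -1.87 in the mitochondrial share, -0.44 to -0.24 in entries without an Ensembl ID and -1.94 to -1.32 in albumin. Genes with at least 10 counts differed by -252.7 to 12.3, the latter, a change of sign, without emodin 5. The causes were not tested. Among other values, 18 log2 differences of named genes moved by more than their spread and 1932 did not; for list medians these were 24 and 591. The fatty acid synthesis median was -0.45 without emodin 1, and the complement median 0.018 with total counts. Depth limits the interferon ligands, where a count of 0 allows 0.0674 to 0.107 CPM per liver.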

Other observations

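Whether Isg15 goes with the same genes in livers without emodin was looked at in the 8 vehicle livers, a choice made after seeing the data. The levels are log2 CPM, 8 genes were tried, and each p is a two-sided permutation p. Cxcl10 correlated with Isg15 at r = 0.852 (permutation p = 0.0089, adjusted over 8 relations 0.0712) and rho = 0.81 (permutation p = 0.0218, adjusted 0.0872). Without the 2 livers farthest from the median Isg15, r was 0.535. Ifit1 had r = 0.725 (permutation p = 0.0382, adjusted 0.153) and rho = 0.69 (permutation p = 0.0694, adjusted 0.185), and r = 0.502 without those 2 livers. Saa2 had r = 0.669 (permutation p = 0.0707, adjusted 0.189) and rho = 0.81 (permutation p = 0.0218, adjusted 0.0872), and r = 0.788 without them. The r of Rsad2, Lcn2, Atf3, Jun and Elovl6 lay between -0.174 and 0.37. Without the 2 livers it went from 0.353 to -0.423 for Rsad2, from 0.296 to 0.291 for Lcn2, from -0.174 to 0.631 for Atf3, from 0.37 to 0.773 for Jun and from 0.192 to -0.137 for Elovl6, so most of these values rest on those livers. None of the 8 relations passed the adjustment.

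Of 24 genes of cell division tested, 3 were lower in the Isg15-high class without overlap, where 9.43% of all entries were, short of the threshold: the cyclin Ccnb1, the mitotic kinase Plk1 and Cdc20, which activates the anaphase ligase. The median log2 difference of the 24 was -0.16. Ccnd1, a cyclin of the G1 phase, was at 16.8, 81.1, 26.2 and 112 CPM in emodin 2, 4, 5 and 8 and 35.5, 25.5, 39.4 and 18.1 CPM in emodin 1, 3, 6 and 7. The growth hormone receptor Ghr was at 377, 222, 446 and 219 against 518, 516, 454 and 484 CPM, lower without overlap and short of the threshold. Among mitochondrially encoded genes, 1 of 13 passed, lower in the Isg15-high class, where 4.09% of all entries were. Lower without overlap were 3, beside 9.43% of all entries, and the median was -0.48. Without emodin 2, 8 passed. Their summed share of each library is described above.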
